A study of Mus musculus with 11 samples.

Results

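Alternative activation is the state that macrophages enter under the type 2 cytokines IL-4 and IL-13. This section describes 10 genes widely used as its markers in the mouse: the receptor chain Il4ra, the lectins Mrc1, Mgl2 and Clec10a, the secreted proteins Retnla, Chil3 and Ear2, the chemokines Ccl17 and Ccl22, and the checkpoint ligand Pdcd1lg2. They were taken by gene name from both expression tables of the series, where all 10 are present among 35118 genes in the table for genotype and 35597 genes in the table for site. All 10 also passed the filter on low values in both tables, though in the table for site Retnla, Mgl2 and Ccl17 did so through the tumor libraries alone.

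RNA from sorted macrophages was sequenced in 11 libraries of C57BL/6 mice that were 6 to 8 weeks old and carried subcutaneous tumors of Lewis lung carcinoma (LLC), a mouse lung tumor line, taken on day 14. KO_TAM denotes tumor-associated macrophages of LysMCre;Sin1fl/fl mice (n = 4), WT_TAM those of Sin1fl/fl mice (n = 4), and WT_SP splenic macrophages of Sin1fl/fl mice (n = 3). Every mouse thus carried the floxed allele and a tumor, and the mice of the WT groups lacked the Cre. Sin1, encoded by Mapkap1, is a subunit of the kinase complex mTORC2. LysMCre is driven from the lysozyme locus, which is active in macrophages and also in neutrophils, so it is not specific to macrophages. Tumor macrophages were gated as CD11b+ F4/80+ and splenic ones as F4/80+ with low CD11b, both after exclusion of Ly6G+ and Ly6C+ cells. Whether every library stands for a separate mouse is not said in the labels. The p-values therefore rest on the variation among these libraries, part or all of which may be technical.

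In this pathway IL-4 binds a receptor made of Il4ra with the common gamma chain Il2rg, and IL-13 one made of Il4ra with Il13ra1. The Janus kinases on these chains phosphorylate STAT6, which enters the nucleus and activates target genes, among them several of the genes described here. Macrophages in tumors often show part of this program, and some of its genes are also switched on by other signals and in other cell types, such as dendritic cells and eosinophils.

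STAT6 is known to bind palindromes made of TTC and GAA with 4 bases of any kind between them, and most other STAT proteins prefer the form with 3 bases between them, TTCNNNGAA. Both motifs were looked up in RefSeq promoter windows (GRCm38.p6) that run from 250 bases before to 50 bases after each gene start, and 9 of the 10 genes had such a window (not Clec10a). All 4 genes with a match are shown, namely Retnla, Ccl17, Pdcd1lg2 and Chil3. Of the markers, Mgl2 and Clec10a differed more between tumor and spleen than Pdcd1lg2 did. Mgl2 held no match, and Clec10a had no window. Chil3 varied most among the tumor libraries. The match is in capitals, with 20 bases on each side, 5′ to 3′ on the strand of the gene.
Retnla, chr16:48842444-48842493, plus strand, spacing of 4, from base -145: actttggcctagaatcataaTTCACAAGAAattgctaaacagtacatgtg
Ccl17, chr8:94810279-94810328, plus strand, spacing of 4, from base -154: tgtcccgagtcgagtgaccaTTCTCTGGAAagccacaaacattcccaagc
Ccl17, chr8:94810334-94810382, plus strand, spacing of 3, from base -99: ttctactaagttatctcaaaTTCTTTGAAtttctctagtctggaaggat
Pdcd1lg2, chr19:29410817-29410866, plus strand, spacing of 4, from base -82: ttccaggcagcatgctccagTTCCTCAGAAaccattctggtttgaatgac
Chil3, chr3:106167708-106167756, minus strand, spacing of 3, from base -172: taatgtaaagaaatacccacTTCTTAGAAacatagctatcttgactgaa
Each motif reads the same on both strands, and the 2 matches of Ccl17 do not overlap. Of all 32851 windows of this length, 6.95% hold the motif with 4 bases between and 8.3% the one with 3. The windows of Mrc1, Mgl2, Il4ra, Ear2 and Ccl22 held neither motif, which says only that these letters are not in this window. A match is a description of the sequence, and binding was not measured.

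In GRCm38 the genes lie on 8 chromosomes. Mgl2 (ENSMUSG00000040950, chromosome 11, 70130329 to 70137550) and Clec10a (ENSMUSG00000000318, chromosome 11, 70156197 to 70170834) are neighbors 18646 bases apart with 0 genes between them. Ccl22 (ENSMUSG00000031779, chromosome 8, 94745590 to 94751699) and Ccl17 (ENSMUSG00000031780, chromosome 8, 94810453 to 94812036) lie 58753 bases apart with the chemokine gene Cx3cl1 between them. Pdcd1lg2 (ENSMUSG00000016498, chromosome 19, 29410919 to 29471161) follows 22823 bases after Cd274, which encodes the other ligand of PD-1. All of these are on the plus strand, as are Retnla (ENSMUSG00000061100, chromosome 16, 48842551 to 48844461), Mrc1 (ENSMUSG00000026712, chromosome 2, 14229392 to 14332057), Il4ra (ENSMUSG00000030748, chromosome 7, 125552120 to 125579474) and Ear2 (ENSMUSG00000072596, chromosome 14, 44102654 to 44103534), while Chil3 (ENSMUSG00000040809, chromosome 3, 106147554 to 106167564) is on the minus strand. All 10 are annotated as protein coding.

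Some of these genes have close copies, so reads may have been split between them. Over the aligned part of their longest coding transcripts, Ear2 and Ear1 were 96.8% identical, Ear2 and Ear10 94.7%, Chil3 and Chil4 94.4%, and Mgl2 and Clec10a 93.6%. The values of Ear2, Chil3, Mgl2 and Clec10a are uncertain to that extent. Il4ra, Ear2 and Pdcd1lg2 are each overlapped by a noncoding gene on the other strand, and whether the counting used strand is not stated.

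Each library held between 7635519 and 13116627 reads in genes, recovered from the deposited values as described under the processing. Levels are given as CPM, that is, reads scaled by each library's total and by the size factor found in the table, and 3 reads in a library corresponded to between 0.211 and 0.492 CPM. WT_TAM replicate 4 stood apart: its median absolute log2 difference from the other WT_TAM libraries was 0.67, against 0.27 to 0.30 for the others, and KO_TAM replicate 2 stood at 0.38 against 0.21 to 0.26. Mapkap1, the targeted gene, had 43.98, 54.06, 43.27 and 45.94 CPM in KO_TAM libraries, against 71.09, 66.44, 59.67 and 30.69 CPM in WT_TAM libraries. The lowest level was in WT_TAM replicate 4. These reads cover the whole gene and not the deleted part alone, so they do not check the labels. Values without WT_TAM replicate 4 are given where its removal turned the direction, changed the call or moved a printed fold change by over 1.5 times, and for a few other markers. The 8 macrophage markers, Adgre1, Csf1r, Cd68 and the C1q genes among them, were read in every group and summed to between 6350 and 8090 CPM in KO_TAM, between 8930 and 18600 CPM in WT_TAM, and in the table for site between 10100 and 19700 CPM in WT_TAM and between 3020 and 3720 CPM in WT_SP. WT_SP also held 5340 to 6350 CPM of the 4 B cell markers, against 9.18 to 70.8 CPM in WT_TAM.

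Per length of transcript, as RPKM, which is CPM per kilobase, Retnla was the highest of the 10 genes in both tumor groups, with 2560 ± 1520 RPKM in KO_TAM and 816 ± 425 RPKM in WT_TAM (SD, n = 4 each). Chil3 came next, and Mgl2 followed, with 351 ± 142 RPKM in KO_TAM and 292 ± 55.1 RPKM in WT_TAM. Il4ra came after Mgl2, at 156 ± 45.6 RPKM in KO_TAM and 127 ± 28.3 RPKM in WT_TAM. The remaining 6 genes averaged between 9.56 RPKM (Ccl22) and 85.2 RPKM (Mrc1) in KO_TAM, and between 14.0 RPKM (Ccl22) and 76.8 RPKM (Ccl17) in WT_TAM. The libraries of neighboring genes in this order overlapped, except Chil3 with Mgl2, Mgl2 with Il4ra and Il4ra with Mrc1 in KO_TAM, and Mgl2 with Il4ra in WT_TAM. In WT_SP the order was another one, led by Chil3 at 145 ± 36.5 RPKM and Il4ra at 95.2 ± 2.93 RPKM and ending with Retnla at 0.286 ± 0.143 RPKM and Ccl17 at 0.19 ± 0.0817 RPKM (SD, n = 3).

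The first comparison, KO_TAM against WT_TAM, addresses how Sin1 in myeloid cells bears on the transcriptome of tumor macrophages. The largest differences between the means were those of Retnla and Chil3, both higher in KO_TAM, but none of the 10 markers passed the test: 0 were called of 10 tested. Across all genes the share called was 0% of 12874, with limma on log2(CPM + 0.5) and Benjamini-Hochberg adjustment at 0.05, and the smallest adjusted p of any gene was 0.102. At an unadjusted p under 0.05 stood 2367 genes, or 18.4%, and with limma voom 0 genes were called and 2228 stood under 0.05. Among the markers the mean log2 level was higher in KO_TAM for 7 and lower for 3, while it was higher for 6499 of all 12874 genes. The median log2 fold change of the markers was 0.24, against 0.005 over all genes tested. The libraries of the genotypes overlapped for every one of the 10, so 0 were apart, while 15.1% of all genes did not overlap (6.39% wholly higher and 8.72% wholly lower in KO_TAM).

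Il4ra, the shared receptor chain for IL-4 and IL-13, had 557.2, 622.2, 353.8 and 355.3 CPM in KO_TAM libraries, against 455.3, 446.7, 371.5 and 270 CPM in WT_TAM libraries. The KO_TAM libraries formed a high pair and a low pair, and the low pair lay inside the WT_TAM range. For Il4ra this gave a log2 fold change of 0.27 ± 0.26 (SE; adjusted p by limma = 0.561), and it was -0.036 without WT_TAM replicate 4 and KO_TAM replicate 2.

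The 3 lectins bind sugars on the cell surface, Mrc1 (CD206) mannose and Mgl2 (CD301b) and Clec10a (CD301a) galactose or N-acetylgalactosamine. Mrc1 had 581.9, 324.3, 556.5 and 279.4 CPM in KO_TAM libraries, against 372.5, 345.5, 272.8 and 199.6 CPM in WT_TAM libraries. KO_TAM replicates 1 and 3 were above every WT_TAM library, and the other KO_TAM libraries lay within the WT_TAM range. On the log2 scale Mrc1 differed by 0.52 ± 0.29 (SE; adjusted p by limma = 0.351). Mgl2 had 667.5, 297.7, 692.1 and 360.6 CPM in KO_TAM libraries, against 529.7, 345.3, 385 and 418.1 CPM in WT_TAM libraries, so that KO_TAM replicates 1 and 3 were again the highest and replicate 2 was the lowest of all. Its log2 fold change was 0.19 ± 0.29 (SE; adjusted p by limma = 0.739). Clec10a had 22.49, 15.61, 50.70 and 24.51 CPM in KO_TAM libraries, against 47.34, 33.69, 26.32 and 31.15 CPM in WT_TAM libraries. For Clec10a only KO_TAM replicate 3 stood above the WT_TAM libraries and the other KO_TAM libraries were below all of them, with a log2 fold change of -0.39 ± 0.33 (SE; adjusted p by limma = 0.531).

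Retnla encodes RELMα (FIZZ1), a small secreted protein and one of the most used markers of this state. It had 746.5, 2858, 1237 and 1331 CPM in KO_TAM libraries, against 783.6, 598.2, 390.2 and 193.1 CPM in WT_TAM libraries. KO_TAM replicates 2, 3 and 4 were above every WT_TAM library, and KO_TAM replicate 1 fell just under WT_TAM replicate 1. The means were 1543 ± 913 CPM over the KO_TAM libraries and 491.3 ± 256 CPM over the WT_TAM libraries (± SD, n = 4 each), a ratio of 3.14. For Retnla the log2 fold change was 1.66 ± 0.47 (SE), with a 95% interval for this gene alone of 0.605 to 2.71 and a limma adjusted p of 0.148, which missed the threshold. Leaving out WT_TAM replicate 4 gave 1.27, leaving out KO_TAM replicate 2 as well gave 0.92, and over the 20 alternatives the adjusted p ran between 0.128 and 0.355.

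Chil3 encodes Ym1, a secreted chitinase-like protein. It had 3721, 965, 2028 and 931.6 CPM in KO_TAM libraries, against 865.7, 334.4, 217.9 and 2011 CPM in WT_TAM libraries. All KO_TAM libraries were above WT_TAM replicates 1, 2 and 3, and WT_TAM replicate 4 lay close to KO_TAM replicate 3. Between the genotypes Chil3 had a log2 fold change of 1.43 ± 0.67 (SE; adjusted p by limma = 0.284), 2.02 without WT_TAM replicate 4, 0.95 without WT_TAM replicate 3 and 1.03 without KO_TAM replicate 1. Of the genes listed beside the markers, Rnase2a, an eosinophil-associated ribonuclease, and Ccl24 (eotaxin-2), an attractant of eosinophils, were also high in KO_TAM replicates 1 and 3 and in WT_TAM replicate 4, a resemblance picked out after the values were seen. Rnase2a had 25.61, 13.64, 23.47 and 5.291 CPM in KO_TAM libraries, against 2.785, 0.4243, 0.2316 and 25.73 CPM in WT_TAM libraries. Ccl24 had 202.9, 149.4, 289.8 and 53.35 CPM in KO_TAM libraries, against 36.13, 56.68, 34.58 and 150.8 CPM in WT_TAM libraries. Like Chil3, both had their lowest KO_TAM value in replicate 4 and were far higher in WT_TAM replicate 4 than in the other WT_TAM libraries.

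Ear2, a secreted ribonuclease of the eosinophil-associated family, had 33.08, 31.01, 57.55 and 61.72 CPM in KO_TAM libraries, against 77.47, 29.78, 38.37 and 23.09 CPM in WT_TAM libraries. WT_TAM libraries held both the highest and the lowest value. Ear2 thus had a log2 fold change of 0.20 ± 0.37 (SE; adjusted p by limma = 0.778), and it turned to -0.029 without WT_TAM replicate 4.

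Ccl17 (TARC) and Ccl22 (MDC) attract T cells through the receptor CCR4. Ccl17 had 27.9, 16.33, 20.38 and 18.78 CPM in KO_TAM libraries, against 17.15, 25.8, 26.25 and 89.27 CPM in WT_TAM libraries. WT_TAM replicate 4 was more than 3 times as high as any other library, and the rest of the WT_TAM libraries lay within the KO_TAM range. For Ccl17 the log2 fold change was -0.63 ± 0.43 (SE; adjusted p by limma = 0.432), and -0.15 without WT_TAM replicate 4. Ccl22 had 14.18, 13.95, 15.7 and 36.06 CPM in KO_TAM libraries, against 29.46, 15.36, 49.17 and 23.25 CPM in WT_TAM libraries. Its log2 fold change was -0.54 ± 0.39 (SE; adjusted p by limma = 0.457), and here KO_TAM replicate 4 was the library apart from its group. Activated dendritic cells, which express Ccr7 and Fscn1, are a known source of both chemokines. The 10 dendritic cell markers summed to between 44.3 and 94.1 CPM in KO_TAM and between 65.2 and 152 CPM in WT_TAM. These summed ranges overlapped. Ccr7 had 6.936, 19.53, 9.857 and 17.72 CPM in KO_TAM libraries, against 29.24, 29.70, 52.88 and 23.71 CPM in WT_TAM libraries. For Ccr7 the groups did not overlap, where 8.72% of all genes lay wholly lower in KO_TAM. Cd209a, on the same list, did overlap, with a log2 fold change of 0.017 (adjusted p by limma = 0.989). The part of dendritic cells in the values of Ccl17, Ccl22 and Clec10a was not tested.

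Pdcd1lg2 encodes PD-L2, a ligand of the inhibitory T cell receptor PD-1. It had 108.2, 120.2, 107.5 and 56.35 CPM in KO_TAM libraries, against 62.59, 59.82, 52.03 and 62.3 CPM in WT_TAM libraries. KO_TAM replicates 1, 2 and 3 were above all WT_TAM libraries, which lay close together, and KO_TAM replicate 4 was among them. The means were 98.05 ± 28.4 CPM over the KO_TAM libraries and 59.19 ± 4.93 CPM over the WT_TAM libraries (± SD, n = 4 each). For Pdcd1lg2 the log2 fold change was 0.67 ± 0.24 (SE), with a limma adjusted p of 0.206 that ran between 0.0653 and 0.459 over the 20 alternatives. Cd274 (PD-L1), its neighbor and relative, had 855.1, 1200, 636.6 and 336.6 CPM in KO_TAM libraries, against 411.2, 379.2, 342.4 and 60.75 CPM in WT_TAM libraries. As for Pdcd1lg2, KO_TAM replicate 4 was the one that overlapped WT_TAM, and the log2 fold change of Cd274 was 1.52 ± 0.60 (SE; adjusted p by limma = 0.234). Its size leaned on WT_TAM replicate 4, without which it was 0.86 (adjusted p = 0.246).

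**Figure D1:**
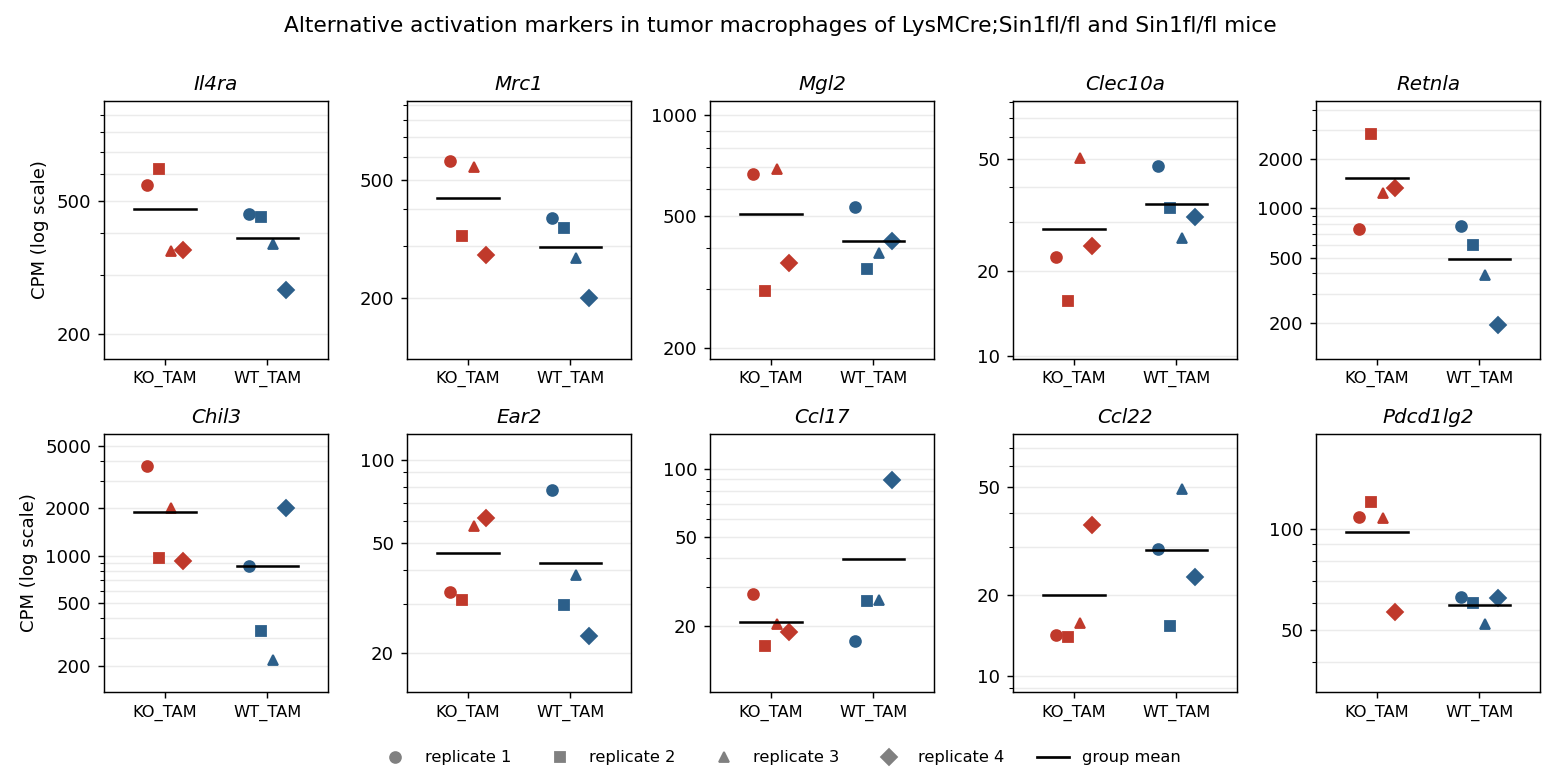
Level of each of the 10 markers in CPM, on log axes that differ between panels, in the 4 KO_TAM libraries (left, red) and the 4 WT_TAM libraries (right, blue), with symbols for the replicate number and bars for the group mean. The groups overlap in every panel, and Ccl17 and Chil3 show WT_TAM replicate 4 at 89.27 CPM and 2011 CPM, above the other WT_TAM libraries.

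Retnla was closely followed by Il4 across the tumor libraries. Il4, which encodes the cytokine itself, had 6.936, 29.35, 11.44 and 14.02 CPM in KO_TAM libraries, against 5.936, 4.667, 3.551 and 1.705 CPM in WT_TAM libraries. All KO_TAM libraries were above all WT_TAM libraries, as for 6.39% of all genes. The log2 fold change of Il4 was 1.75 ± 0.45 (SE; adjusted p by limma = 0.13), and 1.09 without WT_TAM replicate 4 and KO_TAM replicate 2. Of all genes tested in this table, Il4 had the profile most like that of Retnla over the 8 libraries. After each profile was centered on its mean, the root mean square difference between them was 0.15 on the log2 scale, where Retnla spanned 3.88. Ccr1l1 at 0.19 and Fmo5 at 0.22 came close behind. The other ligand, Il13, had at most 0.6201 CPM in a KO_TAM library and 0.155 CPM in a WT_TAM library and was below the filter.

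Of the 5 eosinophil markers, Siglecf, Ccr3 and Il5ra were highest and lowest in the same tumor libraries as Retnla and Il4. The 5 markers summed to 282.7, 1054, 266.5 and 419.5 CPM in KO_TAM libraries, against 185.3, 136.8, 125 and 15.19 CPM in WT_TAM libraries, so the groups did not overlap. Siglecf and Ccr3 made up most of every sum. Siglecf had 129.1, 486.5, 97.73 and 163.5 CPM in KO_TAM libraries, against 78.49, 53.29, 52.18 and 3.41 CPM in WT_TAM libraries. Ccr3, the eotaxin receptor, had 111, 411.3, 129.8 and 200.6 CPM in KO_TAM libraries, against 84.72, 67.71, 53.88 and 8.679 CPM in WT_TAM libraries. For both, as for Retnla, Il4 and Alox15, KO_TAM replicate 2 was the highest library, KO_TAM replicate 4 the next and WT_TAM replicate 4 the lowest. Epx, a granule protein of eosinophils, was at or below 0.7719 CPM in every tumor library, and Prg2, another, ran between 2.116 and 25.22 CPM in KO_TAM and between 1.612 and 4.104 CPM in WT_TAM. Eosinophils of the mouse carry CD11b and F4/80, so the gate does not by itself remove them. Their part in the values of Retnla was not tested, and in bulk RNA more cells of a type and more RNA per cell cannot be told apart. The 5 basophil and mast cell markers, of cells that are also known to make IL-4, summed to between 4.26 and 21.1 CPM in KO_TAM and between 8.52 and 18.1 CPM in WT_TAM, and those ranges overlapped. T and innate lymphoid cells make IL-4 as well, and their 5 markers summed to 244.3, 311.4, 257.1 and 163.8 CPM in KO_TAM libraries, against 115.6, 156.6, 132.5 and 94.23 CPM in WT_TAM libraries. These sums were wholly higher in KO_TAM and highest in KO_TAM replicate 2, like Il4, and the part of these cells in the values of Il4 and Retnla was not tested.

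Other marker lists differed between the genotypes too. The 8 macrophage markers summed to between 6350 and 8090 CPM in KO_TAM and between 8930 and 18600 CPM in WT_TAM. The 6 markers of splenic red pulp and marginal zone macrophages summed to between 62.4 and 99.1 CPM in KO_TAM and between 103 and 151 CPM in WT_TAM. Both lists were thus wholly lower in KO_TAM. The 9 neutrophil markers summed to between 131 and 300.3 CPM in KO_TAM and between 69.7 and 109 CPM in WT_TAM, with Ly6g at or below 0.1524 CPM in every tumor library. The 5 markers of alveolar macrophages, Siglecf again among them, summed to between 132 and 531 CPM in KO_TAM and between 27.9 and 96 CPM in WT_TAM. The 5 fibroblast markers summed to between 28.0 and 229 CPM in KO_TAM and between 376 and 832 CPM in WT_TAM, so that these lists did not overlap between the genotypes. The 8 mitochondrial transcripts summed to between 3640 and 14900 CPM in KO_TAM and between 9180 and 58600 CPM in WT_TAM, ranges that overlapped. The part of these cells and transcripts in the marker values was not tested.

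**Figure D2:**
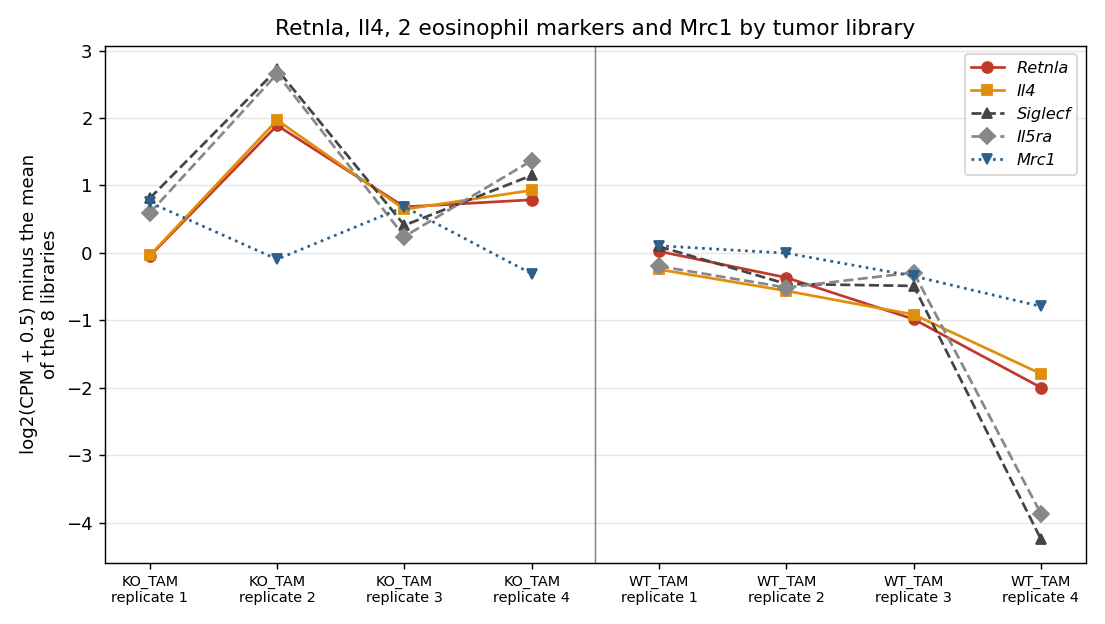
log2(CPM + 0.5) of Retnla, Il4, the eosinophil markers Siglecf and Il5ra, and Mrc1, each minus its mean over the 8 tumor libraries, with KO_TAM libraries on the left and WT_TAM libraries on the right; lines only join the points of a gene. Retnla and Il4 lie nearly on top of each other, Siglecf and Il5ra peak in the same library, KO_TAM replicate 2, and are lowest in WT_TAM replicate 4, and Mrc1 follows another course.

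Beside the 10 markers, 50 genes of the pathway and relatives were listed by role, and 42 of them could be tested between the genotypes. Of these 0 were called, 31 had a higher mean in KO_TAM, the median log2 fold change was 0.27, and 8 did not overlap, against the 15.1% of all genes. Upstream of the markers, Il13ra1 averaged 212.9 ± 25.6 CPM in KO_TAM and 145.1 ± 68.5 CPM in WT_TAM, and Il2rg 163.1 ± 11.4 CPM over the KO_TAM libraries and 165.4 ± 38.1 CPM over the WT_TAM libraries (± SD, n = 4 each). Stat6 averaged 358.2 ± 74.7 CPM in KO_TAM and 302.3 ± 110 CPM in WT_TAM, with a log2 fold change of 0.32 ± 0.31 (SE; adjusted p by limma = 0.582). For Jak1, 402.2 ± 112 CPM in KO_TAM stood against 267.8 ± 80.2 CPM in WT_TAM, where 3 KO_TAM values were restored reads, as described under the processing. Irf4, a transcription factor that acts with STAT6, was low in both groups, with 5.547 ± 2.65 CPM in KO_TAM and 4.878 ± 1.79 CPM in WT_TAM. None of these passed the test.

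Among the other targets, Arg1, the arginase that competes for arginine, was the most abundant after Mmp12 in KO_TAM. It had 9268, 6669, 9026 and 5832 CPM in KO_TAM libraries, against 4593, 6107, 4137 and 6554 CPM in WT_TAM libraries, a log2 fold change of 0.52 ± 0.23 (SE; adjusted p by limma = 0.258). Of the 42 genes, 6 lay wholly higher in KO_TAM, namely Il4, Jak1, Alox15, Mmp12, Il1rn and Retnlg, and 2 wholly lower, namely Myc and Mrc2, a naming made after their values were seen. Mmp12, a macrophage elastase, had 10320, 8249, 7961 and 7133 CPM in KO_TAM libraries, against 2071, 5125, 2714 and 1497 CPM in WT_TAM libraries, and a log2 fold change of 1.70 ± 0.33 (SE; adjusted p by limma = 0.102). Alox15, a lipoxygenase that eosinophils and alternatively activated macrophages both express, had 822.5, 3114, 560.8 and 1008 CPM in KO_TAM libraries, against 463, 342.6, 255.7 and 35.03 CPM in WT_TAM libraries. Retnlg, the relative of Retnla that is known from neutrophils, had 177.1, 683, 167.5 and 146.5 CPM in KO_TAM libraries, against 127.7, 62.37, 63.99 and 41.69 CPM in WT_TAM libraries. In both Alox15 and Retnlg KO_TAM replicate 2 held by far the most. The close copies Chil4 and Ear1 had at most 1.085 CPM and 1.337 CPM in any tumor library and were below the filter. The receptors of the ligands were low: Ccr4 averaged 0.807 ± 0.370 CPM in KO_TAM and 0.886 ± 0.613 CPM in WT_TAM, and Pdcd1 (PD-1) 9.215 ± 3.59 CPM in KO_TAM and 12.56 ± 3.2 CPM in WT_TAM.

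The second comparison, WT_TAM against WT_SP, sets macrophages of the tumor beside those of the spleen in mice without the Cre. Of the 10 markers, 7 were higher in WT_TAM and 0 lower (limma, Benjamini-Hochberg adjusted p under 0.05), where 46.7% of 14239 genes tested were called, 23.1% higher and 23.6% lower. At an unadjusted p under 0.05 stood 9 of the 10, against 53.9% of all genes. The 7 were Retnla, Mgl2, Ccl17, Clec10a, Pdcd1lg2, Ccl22 and Mrc1, and each of them lay above the spleen in every library, as 26.3% of all genes did. Retnla, Mgl2 and Ccl17 passed the filter only through the tumor libraries. The filter thus favored a higher call for these genes, which enter the counts here and the median below. The groups were apart in 7 of the 10 markers, 0 of them wholly lower, against 56.1% of all genes and 29.8% wholly lower. Chil3, Il4ra and Ear2 did not pass. The median log2 fold change of the 10 was 2.19, against -0.067 over all genes tested. With library totals alone as the scale, the median over all genes was -0.524 and 5 of the 10 were called, without Mrc1 and Ccl22. Levels here come from the table for site, in which the scaling differs slightly from that of the table for genotype. Fibroblast markers summed to between 429 and 961 CPM in WT_TAM and between 7.49 and 44.7 CPM in WT_SP, and the mitochondrial transcripts to between 10600 and 67700 CPM in WT_TAM and between 5540 and 7400 CPM in WT_SP. The 8 macrophage markers summed to between 10100 and 19700 CPM in WT_TAM and between 3020 and 3720 CPM in WT_SP. For the 4 B cell markers the sums were between 9.18 and 70.8 CPM in WT_TAM and between 5340 and 6350 CPM in WT_SP. The part of all these cells and transcripts in the differences between tumor and spleen, including those of Mrc1 and Ccl22, was not tested.

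Retnla, Mgl2 and Ccl17 were nearly silent in the spleen. Retnla had 902.9, 690.8, 441.9 and 204.3 CPM in WT_TAM libraries, against 3, 3 and 1 reads in WT_SP libraries, which is 0.172 CPM over the 3 libraries. The ratio was 3260, with a counting interval of 1580 to 8110, and the log2 fold change on the log2(CPM + 0.5) scale was 9.51 ± 0.46 (SE; adjusted p by limma = 1.28e-06). Mgl2 had 610.3, 398.7, 436 and 442.3 CPM in WT_TAM libraries, against 1.339, 0.3088 and 0.8799 CPM, or 19, 4 and 12 reads, in WT_SP libraries. Its log2 fold change was 8.52 ± 0.29 (SE; adjusted p by limma = 4.52e-07). Ccl17 had 19.76, 29.79, 29.73 and 94.43 CPM in WT_TAM libraries, against 1, 1 and 2 reads in WT_SP libraries. The ratio of Ccl17 was 443, with a counting interval of 173 to 1620, and its log2 fold change was 5.93 ± 0.48 (SE; adjusted p by limma = 1.97e-05), with WT_TAM replicate 4 again far above the others. The counting intervals are exact Poisson intervals at 95% for the splenic reads, and they cover counting error only. The splenic reads of Retnla and Ccl17 were at or under 3 in each library, so differences among these libraries were not detectable at this depth. At such low splenic levels the size of a log2 fold change depends on the pseudocount. With pseudocounts of 0.1 and 2 it was 10.863 and 7.817 for Retnla, 9.128 and 7.378 for Mgl2, and 7.525 and 4.184 for Ccl17. The 5 eosinophil markers summed to between 16.1 and 213 CPM in WT_TAM and between 162 and 195 CPM in WT_SP, where Ccr3 and Il5ra made up most of the sum and Siglecf stood at 1.393 to 2.396 CPM.

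Clec10a and Pdcd1lg2 were present in the spleen and higher in the tumor. Clec10a had 54.55, 38.9, 29.81 and 32.95 CPM in WT_TAM libraries, against 3.101, 2.007 and 2.2 CPM in WT_SP libraries, a log2 fold change of 3.73 ± 0.26 (SE; adjusted p by limma = 9.25e-06). Pdcd1lg2 had 72.11, 69.08, 58.93 and 65.91 CPM in WT_TAM libraries, against 10.08, 9.495 and 8.799 CPM in WT_SP libraries. Both groups of Pdcd1lg2 were tight, with means of 66.51 ± 5.65 CPM in WT_TAM (SD, n = 4) and 9.458 ± 0.641 CPM in WT_SP (SD, n = 3), and the log2 fold change was 2.75 ± 0.17 (SE; adjusted p by limma = 3.4e-06). Its relative Cd274 averaged 340.9 ± 188 CPM in WT_TAM and 52.97 ± 6.01 CPM in WT_SP and also passed (log2 fold change 2.34 ± 0.64, SE; adjusted p by limma = 0.0162). The call of Cd274 was lost without WT_SP replicate 1 (adjusted p = 0.0601) or 3 (0.0503), and its log2 fold change was 3.02 without WT_TAM replicate 4.

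Mrc1 and Ccl22 averaged 2.18 and 2.46 times as much in WT_TAM as in WT_SP, and their calls depended on the scaling and on single libraries. Mrc1 had 429.1, 399, 309 and 211.2 CPM in WT_TAM libraries, against 186.2, 161 and 117.4 CPM in WT_SP libraries. The log2 fold change of Mrc1 was 1.09 ± 0.28 (SE; adjusted p by limma = 0.0123), and the call was lost with library totals alone (0.62, adjusted p = 0.118) and without WT_SP replicate 3 (adjusted p = 0.0641). Ccl22 had 33.95, 17.73, 55.69 and 24.59 CPM in WT_TAM libraries, against 16.63, 12.35 and 11.22 CPM in WT_SP libraries, so that the lowest WT_TAM library was barely above the highest WT_SP library. The log2 fold change of Ccl22 was 1.16 ± 0.37 (SE; adjusted p by limma = 0.0291). It was lost with library totals alone (0.70, adjusted p = 0.174), and without WT_TAM replicate 1, WT_SP replicate 2 or WT_SP replicate 3 (adjusted p = 0.0664, 0.0933 and 0.106). The adjusted p over its 18 alternatives ran between 0.00299 and 0.174 for Ccl22 and between 2.11e-06 and 0.118 for Mrc1. The dendritic cell markers summed to between 69 and 175 CPM in WT_TAM and between 611 and 651 CPM in WT_SP. Ccr7 alone ran between 25.08 and 59.89 CPM in WT_TAM and between 372.8 and 414.7 CPM in WT_SP, most of the splenic sum. The 5 T and innate lymphoid cell markers summed to between 99.7 and 181 CPM in WT_TAM and between 513 and 576 CPM in WT_SP. B cell markers were also far higher in WT_SP, and which cells held the splenic Ccr7 was not tested. Cd209a, on the same list, had a higher mean in WT_TAM, at 37.44 ± 33 CPM against 13.38 ± 3.44 CPM in WT_SP (± SD), and did not pass (limma adjusted p = 0.238). The part of dendritic cells in the values of Ccl17 and Ccl22 was not tested.

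Chil3, Il4ra and Ear2 were expressed in both places and missed the threshold. Chil3 had 997.4, 386.1, 246.8 and 2127 CPM in WT_TAM libraries, against 220.5, 166.4 and 277.7 CPM in WT_SP libraries. Its log2 fold change was 1.63 ± 0.66 (SE; adjusted p by limma = 0.0728), it passed without WT_TAM replicate 3 (2.11, adjusted p = 0.0219), it was 1.07 without WT_TAM replicate 4 (adjusted p = 0.184) and 1.15 with library totals alone (adjusted p = 0.149), and its WT_TAM libraries spanned a far wider range than its WT_SP libraries. The neutrophil markers summed to between 73.8 and 126 CPM in WT_TAM and between 1030 and 2910 CPM in WT_SP, although Ly6G+ cells were excluded in the sort, and their part in the splenic value was not tested. Il4ra had 524.6, 515.8, 420.7 and 285.6 CPM in WT_TAM libraries, against 294.6, 278.5 and 293.1 CPM in WT_SP libraries. Only WT_TAM replicate 4 lay within the splenic range of Il4ra. The log2 fold change was 0.56 ± 0.24 (SE; adjusted p by limma = 0.0825), and without that library 0.75 (adjusted p = 6.86e-05). Ear2 had 89.25, 34.39, 43.45 and 24.43 CPM in WT_TAM libraries, against 49.48, 48.09 and 53.31 CPM in WT_SP libraries. The WT_SP libraries of Ear2 lay inside the WT_TAM range, and its log2 fold change of -0.24 ± 0.38 (SE; adjusted p by limma = 0.644) had a 95% interval of -1.11 to 0.638 and turned to 0.025 without WT_TAM replicate 4.

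**Figure D3:**
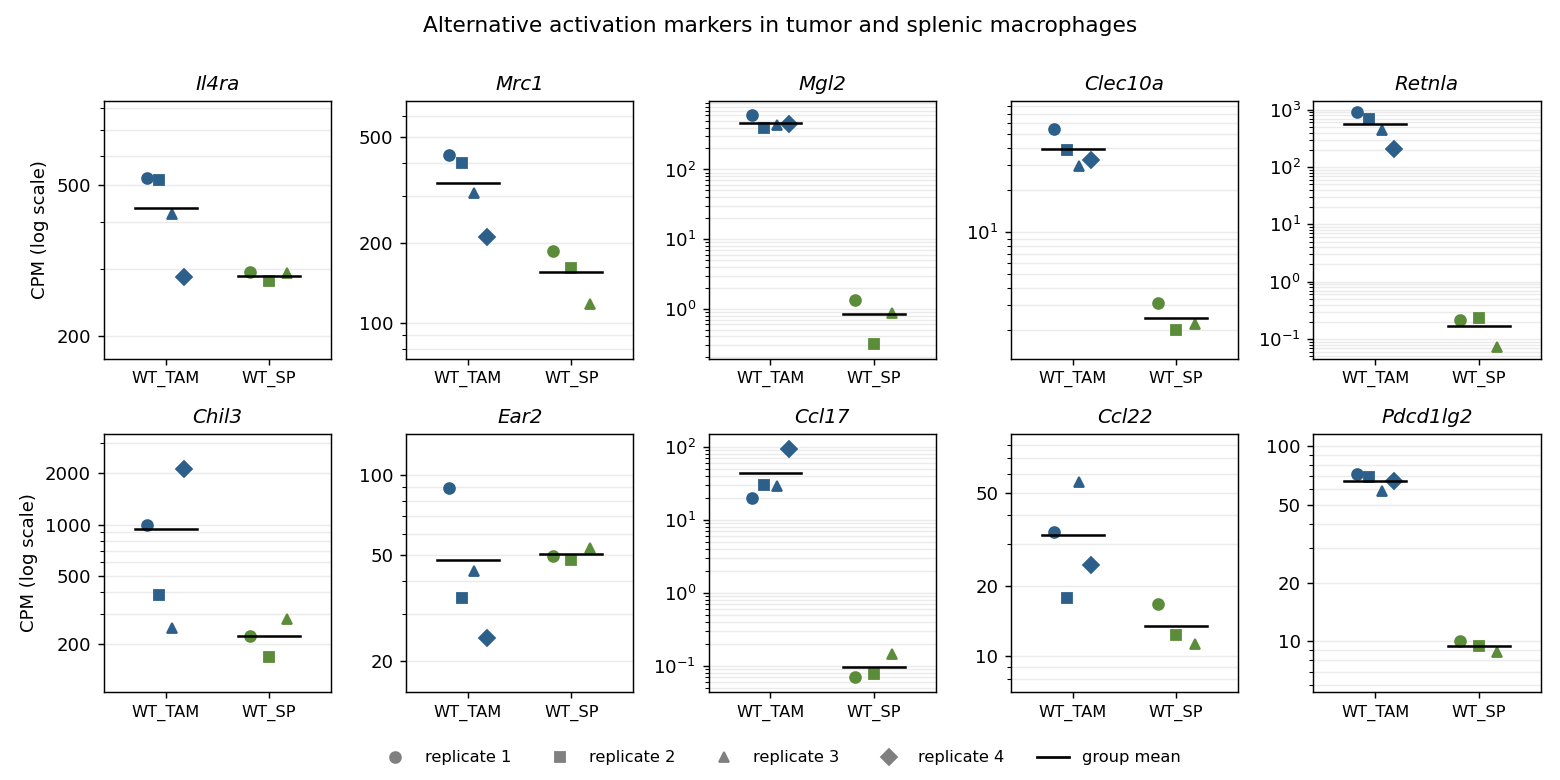
Level of each of the 10 markers in CPM, on log axes that differ between panels, in the 4 WT_TAM libraries (left, blue) and the 3 WT_SP libraries (right, green), with symbols for the replicate number and bars for the group mean. Retnla, Mgl2 and Ccl17 are separated by the widest gaps, Ear2 overlaps, and for Il4ra WT_TAM replicate 4 at 285.6 CPM sits among the WT_SP libraries.

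**Figure D4:**
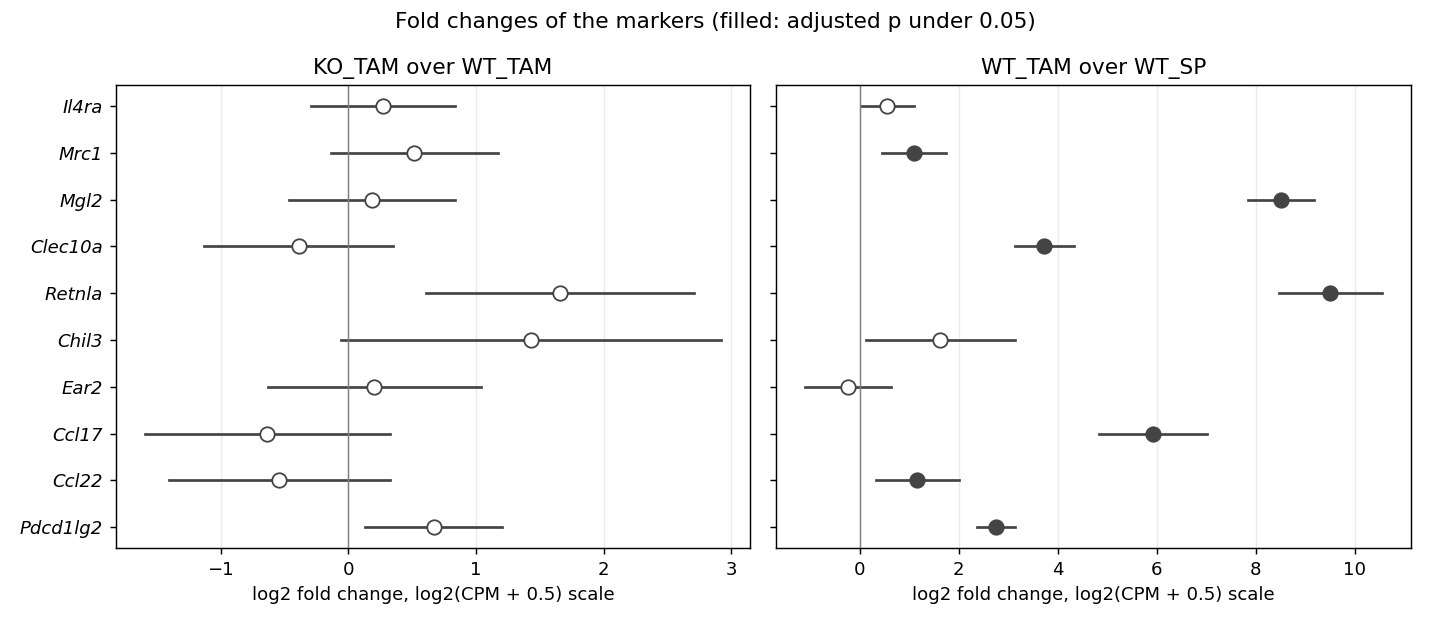
log2 fold changes of the 10 markers with 95% intervals for each gene alone, for KO_TAM over WT_TAM (left) and WT_TAM over WT_SP (right), on axes of different range; filled points passed an adjusted p of 0.05. On the left 0 points are filled and Retnla lies furthest to the right at 1.66, and on the right 7 are filled, up to 9.51 for Retnla.

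Both comparisons use the WT_TAM libraries, so their fold changes share these libraries. Set side by side, Retnla had a log2 fold change of 1.66 for KO_TAM over WT_TAM and 9.51 for WT_TAM over WT_SP. For Mgl2 the values were 0.19 for KO_TAM over WT_TAM and 8.52 for WT_TAM over WT_SP. For Ccl17 they were -0.63 for KO_TAM over WT_TAM and 5.93 for WT_TAM over WT_SP. The sizes over WT_SP depend on the pseudocount, as given above.

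Of the 50 listed pathway genes and relatives, 42 were tested between WT_TAM and WT_SP, and 25 were higher and 8 lower, with a median log2 fold change of 2.03, where 23.1% of all genes were higher and 23.6% lower. Upstream, Il4 and Il13ra1 were higher and Jak1 lower in WT_TAM. Il4 averaged 4.513 ± 2.14 CPM in WT_TAM and 1.283 ± 0.523 CPM in WT_SP (log2 fold change 1.41 ± 0.43, SE; adjusted p by limma = 0.0243). This call was lost with library totals alone (adjusted p = 0.0729) and without WT_TAM replicate 1, 2 or 3 or WT_SP replicate 1 or 3 (adjusted p from 0.0509 to 0.104). Il13ra1 averaged 165.4 ± 80.7 CPM in WT_TAM and 23 ± 3.48 CPM in WT_SP and rose by a log2 fold change of 2.62 ± 0.48 (SE; adjusted p by limma = 0.00231). For Jak1 303.9 ± 99.2 CPM in WT_TAM stood against 710.3 ± 26.7 CPM in WT_SP, a log2 fold change of -1.30 ± 0.30 (SE; adjusted p by limma = 0.00714), while Stat6, at 343.6 ± 134 CPM in WT_TAM and 361.9 ± 15.3 CPM in WT_SP, did not pass (limma adjusted p = 0.696). Il2rg, at 186.8 ± 47.9 CPM in WT_TAM and 277.4 ± 29.9 CPM in WT_SP, narrowly missed the threshold (limma adjusted p = 0.0545) and passed with library totals alone (0.00749) and without WT_TAM replicate 1 (0.0173) or 4 (0.0175), and Il13 stayed under the filter.

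Of the 8 transcription factors 4 were higher and 3 lower, beside 23.1% higher and 23.6% lower among all genes. The 4 that were higher, named here after their values were seen, were Klf4 with a log2 fold change of 3.70 (limma adjusted p = 0.000396), Cebpb with 2.26 (0.00826), Egr2 with 2.26 (0.00852) and the histone demethylase gene Kdm6b with 1.64 (0.00327). Cebpb was low, at 6.165 ± 5.55 CPM in WT_TAM and 0.6736 ± 0.42 CPM in WT_SP (± SD). The size of its fold change therefore depends on the pseudocount. Irf4 averaged 5.542 ± 2.16 CPM in WT_TAM and 53.84 ± 8.6 CPM in WT_SP and fell by 3.25 on the log2 scale (limma adjusted p = 1e-04), and Pparg, at 4.542 ± 1.89 CPM in WT_TAM and 25.47 ± 3.99 CPM in WT_SP, fell by 2.44 (limma adjusted p = 0.000399). Irf4 is also expressed by B cells, whose markers were abundant in WT_SP, and Pparg by red pulp macrophages, whose 6 markers summed to between 117 and 160 CPM in WT_TAM and between 2360 and 2750 CPM in WT_SP. The part of these cells in the values was not tested. Myc fell by 0.92 on the log2 scale (limma adjusted p = 0.00447), and among the signal transducers Jak3 fell by 0.54 (limma adjusted p = 0.0472) and the phosphatase gene Ptpn6 by 0.65 (limma adjusted p = 0.0283). The calls of Jak3 and Ptpn6 were lost without any 1 of the WT_SP libraries and without WT_TAM replicate 3, and that of Jak3 also without WT_TAM replicate 2 (adjusted p up to 0.148 for Jak3 and 0.0944 for Ptpn6). Other transducers, also named after their values were seen, were higher in WT_TAM: the feedback inhibitor genes Cish with a log2 fold change of 2.72 (limma adjusted p = 0.000119) and Socs1 with 1.80 (0.000422), and the adaptor gene Irs2 with 1.10 (0.0149), whose call was lost with library totals alone (0.0889) and without WT_SP replicate 1 (0.0664).

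Other targets of alternative activation were high in the tumor: 13 of 16 tested were higher and 0 lower, beside 23.1% higher and 23.6% lower among all genes. Arg1 had 5291, 7052, 4685 and 6933 CPM in WT_TAM libraries, against 1.057, 0.772 and 0.7332 CPM in WT_SP libraries, a log2 fold change of 12.10 ± 0.21 (SE; adjusted p by limma = 2.3e-08). Mmp12 (3240 ± 1890 CPM in WT_TAM and 3.402 ± 0.519 CPM in WT_SP), Fn1, a matrix protein (4648 ± 788 CPM in WT_TAM and 34.07 ± 6.48 CPM in WT_SP), and Il1rn, the interleukin 1 receptor antagonist (824.3 ± 324 CPM in WT_TAM and 7.526 ± 0.902 CPM in WT_SP), followed. Slc7a2, a transporter of arginine, and Cdh1 (E-cadherin) rose by 6.28 and 5.56 on the log2 scale (limma adjusted p = 7.78e-06 and 1.06e-05).

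Of the 5 relatives tested, 3 were higher and 1 lower in WT_TAM, beside 23.1% higher and 23.6% lower among all genes. Those higher were Mrc2, Cx3cl1 and Cd274, a naming made after their values were seen. The one that was lower was Chil1, a chitinase-like protein related to Chil3, at 0.4305 ± 0.524 CPM in WT_TAM and 15.93 ± 6.59 CPM in WT_SP (log2 fold change -4.22 ± 0.48, SE; adjusted p by limma = 0.000147). Retnlg averaged 83.94 ± 44.2 CPM in WT_TAM and 45.88 ± 8.32 CPM in WT_SP and did not pass (limma adjusted p = 0.127), though it did without WT_TAM replicate 4 (adjusted p = 0.0202). Chil4 had at most 1.148 CPM in a WT_TAM library and 0.141 CPM in a WT_SP library, and Ear1 at most 0.08743 CPM in WT_TAM and 2.467 CPM in WT_SP. Both were below the filter. The receptor Ccr4 was lower in WT_TAM, at 0.9777 ± 0.637 CPM against 6.88 ± 0.888 CPM in WT_SP (log2 fold change -2.42 ± 0.38, SE; adjusted p by limma = 0.000877), and Pdcd1, at 14.22 ± 4.06 CPM in WT_TAM and 9.916 ± 2.13 CPM in WT_SP, did not pass (limma adjusted p = 0.202) except without WT_TAM replicate 4 (adjusted p = 0.0166).

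The markers did not share one profile over the tumor libraries. Among the 8 tumor libraries, the gene most like each marker was Pim3 for Il4ra (root mean square difference 0.09 on the log2 scale), Kctd21 for Mrc1 (0.11), Mitf for Mgl2 (0.14), Sepp1 for Clec10a (0.13), Npm3 for Ccl17 (0.16), Ankrd42 for Ccl22 (0.22), Tarm1 for Pdcd1lg2 (0.13), Gm9530 for Ear2 (0.23) and Gm6522 for Chil3 (0.53). No marker was the nearest gene of another. Over the 7 libraries of tumor and spleen, the nearest genes were Nos2 for Retnla (0.52), Ccl2 for Mgl2 (0.37), Sh3pxd2b for Ccl17 (0.34), Map3k6 for Clec10a (0.14), Plod1 for Pdcd1lg2 (0.06), Hspa4l for Mrc1 (0.11), Gm26780 for Ccl22 (0.26), Tapbp for Il4ra (0.05), Rem1 for Ear2 (0.18) and CAAA01147332.1 for Chil3 (0.32). The likeness is a description over few libraries.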

How the data were processed

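RNA was sequenced from the 11 libraries, whose groups and numbers come from the sample titles. The submitters' processing notes name the build mm10 and the tools TopHat2, HISAT2, HISAT, SAMtools, HTSeq and DESeq2, with no roles, versions or settings. There are 2 tables deposited by the authors, with WT_TAM in both. Their values have decimals and some are below 0, so the deposited unit was taken as a score. A value turned out to be whole reads over gene length, library total and library factor, times a factor that cycles through the libraries from row to row. Reads were recovered from these steps, to within 0.0002 reads, and made up 99.95% to 99.99% of the total that each library implies. In the table for genotype 98 values of 35 genes were not whole. Those in WT_TAM were replaced from the table for site and those in KO_TAM restored by undoing 1 round amount, and 1 gene, Fdps, was left out. Jak1 and Socs1 were affected and none of the 10 markers.

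As the authors deposited scores, the main test was not a count model, and limma voom on the recovered reads was run only as an alternative. limma 3.58.1 (R 4.3.3; trend, robust) was run on log2(CPM + 0.5), per table on its own 2 groups, two-sided, adjusted by Benjamini-Hochberg over all genes tested at 0.05. Fold changes on this scale understate those of low genes. A gene entered if it reached 15 reads in total and the CPM equal to 10 reads in a library of median size, this one in a number of libraries no less than the size of the smaller group. In simulated data with 200 genes changed 4-fold, 99.5% were recovered for KO_TAM vs WT_TAM (12695 genes) and 97.5% for WT_TAM vs WT_SP (13894 genes). The simulation gave all genes the same dispersion (spread between libraries), changed only genes above a minimum level and held no outlying library. Its shares therefore do not tell how many 4-fold differences would be called in the real libraries. Alox15, with a ratio of means of 5.02 for KO_TAM over WT_TAM, was not called (adjusted p by limma = 0.168). No 2 libraries of a group agreed within sampling noise (chi-square per degree of freedom of 11 or more).

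The genes and lists were chosen with earlier results of these data known. Of listed genes, 14 were always named, plus the 5 with the largest change past the threshold per direction, and the 1 gene with the most similar profile. Alternatives were pseudocounts of 0.1 and 2, other filters and scalings, voom, array weights, no robust fit, a replicate block, the values as deposited, and leaving libraries out; for the pathway genes, leaving libraries out and library totals alone were added after the data were seen. Annotation was GENCODE M21 and promoters RefSeq.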

Additional observations from a re-analysis of the deposited data

Results flagged for a closer look

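In 20 groups of 4 values, 1 per marker and tumor group, 2 had a library whose gap to the nearest other was, relative to the group's range, over Dixon's critical value at 95%, and chance flags about 1 in 20 groups (5%). Ccl22 in KO_TAM replicate 4 stood at 36.06 CPM, with a gap of 0.921 of the range, against 13.95 to 15.7 CPM in the other KO_TAM libraries. Ccl17 in WT_TAM replicate 4 stood at 89.27 CPM, with a gap of 0.874 of the range, against 17.15 to 26.25 CPM in the other WT_TAM libraries.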

How the results depend on the processing

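Of 380 fold changes of the markers over the alternatives, 363 kept their direction and their side of the threshold, 6 lost the call, 5 gained it and 6 turned their direction. Of 228 counts of genes 11 moved, that is, rose from 0 or changed by over 1.5 times. The fold changes that turned were Ear2 for KO_TAM over WT_TAM (-0.001 with array weights, -0.029 without WT_TAM replicate 4), Il4ra for KO_TAM over WT_TAM (-0.036 without WT_TAM replicate 4 and KO_TAM replicate 2), and Ear2 for WT_TAM over WT_SP (0.039 with array weights, 0.025 without WT_TAM replicate 4, and 0.025 with the replicate block, which leaves that library out too). Leaving out 1 library at a time, these ran from -0.029 to 0.546 and 0.112 to 0.396 between the genotypes for Ear2 and Il4ra, and from -0.591 to 0.025 between the sites for Ear2. Between the genotypes, genes called higher and lower were 21 and 83 with no filter on low reads, 140 and 247 with array weights, and 21 and 44 without WT_TAM replicate 4 and KO_TAM replicate 2. With the values as deposited 4 genes were called higher. Of the pathway genes 1 was called higher with no filter and 4 with array weights, and 0 of the 10 markers under any of the 20 alternatives. Between WT_TAM and WT_SP, library totals alone gave 2135 higher and 5629 lower. The cause of these shifts was not tested. With the replicate block 0 genes were called between the genotypes and 9008 between WT_TAM and WT_SP, with 8 of the 10 markers higher. WT_SP has no replicate 4, so that second fit was also without WT_TAM replicate 4, whose removal alone gave 9133 genes and 8 markers. The same-numbered libraries of KO_TAM and WT_TAM had correlations of deviations of 0.046, 0.115, -0.162 and 0.198, so the numbers were not taken as pairs. Leaving out 1 library at a time gave 5 to 8 markers higher in WT_TAM than in WT_SP. Groups of 3 or 4 libraries leave wide intervals for Chil3, Ccl17 and Ear2, and depth limits the splenic values of Retnla and Ccl17.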
